A study of Mus musculus with 14 samples.

Results

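The collagen gene family was measured in whole ovaries of mouse embryos with and without Coup-tfII, a nuclear receptor whose gene symbol is Nr2f2. Its members were all probe sets whose only gene symbol in the platform annotation was Col, a number, a and a number. This gave 82 of 45037 probe sets and 42 of 18193 genes. Each gene was represented by its brightest probe set, and 34 of the 42 genes lay above a filter on dim genes (a mean level of 62.0 on the array's signal scale) and were tested. The tested members were 8 of 11 fibrillar collagens, 8 of 9 of the basement membrane group, 6 of 8 network-forming, 8 of 9 fibril-associated and 3 of 4 transmembrane collagens, and Col26a1, which fits none of these classes. The other 8 genes, with 12 probe sets, were Col5a3, Col11a2 and Col24a1, Col4a3, Col6a5 and Col10a1, Col19a1 and Col17a1. None of their probe sets reached a group mean above 77.7, and none passed the test when fitted without the filter (smallest limma adjusted p = 0.450 at E14.5 and 0.374 at E16.5).

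The arrays fell into 4 groups, each array from a sample that the labels call a biological replicate: 3 of controls and 3 of knockouts at E14.5, and 4 of each genotype at E16.5, where E stands for embryonic day. The knockout was a floxed Coup-tfII gene deleted by WT1-CreERT2, a recombinase that is expressed under Wt1 and becomes active with tamoxifen. Pregnant females of all groups were given tamoxifen, 2 mg per 10 g of body weight, on E11.5 and E12.5, so the controls carried the drug as well. The background was a mix of C57BL/6, Swiss Webster and B6129SF1/J. The sources used here do not say which alleles the controls carried or how many ovaries a sample pooled. Cells whose lineage did not express Wt1 while tamoxifen was active keep the gene. Levels are MAS5 signals, scaled on each array to the same trimmed mean, and changes are differences of log2(signal + 16) with their standard error (SE). Signals of different probe sets are not compared with each other, because each probe set binds with its own strength.

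Collagens are secreted or membrane-bound proteins of 3 chains wound into a triple helix. Fibrillar collagens (types I, II, III, V, XI and XXVII here) build the fibrils of connective tissue. Type IV collagen forms the sheet of the basement membrane, to which the multiplexins Col15a1 and Col18a1 and the anchoring fibril collagen Col7a1 are attached. Types VI and VIII form beaded filaments and hexagonal nets, the fibril-associated collagens sit on the surface of fibrils, and the transmembrane collagens are held in the plasma membrane by a single pass. In the fetal ovary, basement membranes surround the germ cell cords and the surface epithelium, and the cells between the cords make the interstitial matrix.

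No arrays held identical values. At E14.5, knockout replicate 2 was the highest of the 3 knockout arrays for 27 of 34 collagen genes, and at E16.5, knockout replicate 1 was the highest of 4 for 15 and knockout replicate 4 the lowest for 15. The sources used here do not say which Nr2f2 probe sets lie in the deleted part, and one outside it would not check the labels. Fitted probe set by probe set without the filter, 3 of 6 passed as lower in knockouts at E16.5 and none at E14.5. For 5 the E16.5 groups were fully separate, with knockouts lower, and the other had 0.26 ± 0.39 (SE). The brightest, which stood for the gene, went from a mean of 4332 in E16.5 controls to 2534 in knockouts. Its change of -0.79 ± 0.22 (SE) did not pass in the main fit (limma adjusted p = 0.0753). Its E14.5 means were 377 in controls and 225 in knockouts, so knockout samples kept Nr2f2 signal. The difference between the 3' and the 5' probe sets of Gapdh, a measure of how far labelled RNA was shortened, was -0.29 ± 0.20 (SD, n = 3) in E14.5 controls and -0.33 ± 0.04 (SD, n = 3) in E14.5 knockouts on the log2 scale. It was 1.75 ± 0.07 (SD, n = 4) in E16.5 controls and 1.37 ± 0.31 (SD, n = 4) in E16.5 knockouts. All 5 germ cell and all 5 pre-granulosa markers listed were above the filter. In whole ovaries, fewer cells of a type and less RNA per cell cannot be told apart.

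Knockout against control at E16.5 asked which collagens differed 4 days after the last tamoxifen dose. Col9a1, Col14a1 and Col15a1 rose and Col25a1 fell, while the abundant fibrillar collagens and type IV collagen did not pass the test. These 4 of 34 genes (11.8%) stood against 1.42% of all 12406 genes tested (limma adjusted p under 0.05). Of the 2 fibril-associated members, Col14a1 rose 3.04-fold in mean signal, and Col9a1 rose from a mean of 22.9, under the filter level, to 101. The basement membrane member Col15a1 rose 1.91-fold, and the transmembrane member Col25a1 was 3.15-fold lower. The filter used the mean over all arrays, and Col9a1 lay above it only with its high E16.5 knockout arrays counted. The called share therefore rests in part on the arrays in which Col9a1 was high. Direction was even over the family: 17 members lay above 0 and 17 below, against 58.9% of all genes above 0, and the median change was 0.03 against 0.05 for all genes. Knockouts and controls were fully separate for 8 members (23.5%), against 10.4% of all genes: 5 were higher and 3 lower, against 6.22% and 4.22%, and 11 members (32.4%) had an unadjusted limma p under 0.05, against 18.3% of all genes.

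**Figure D1:**
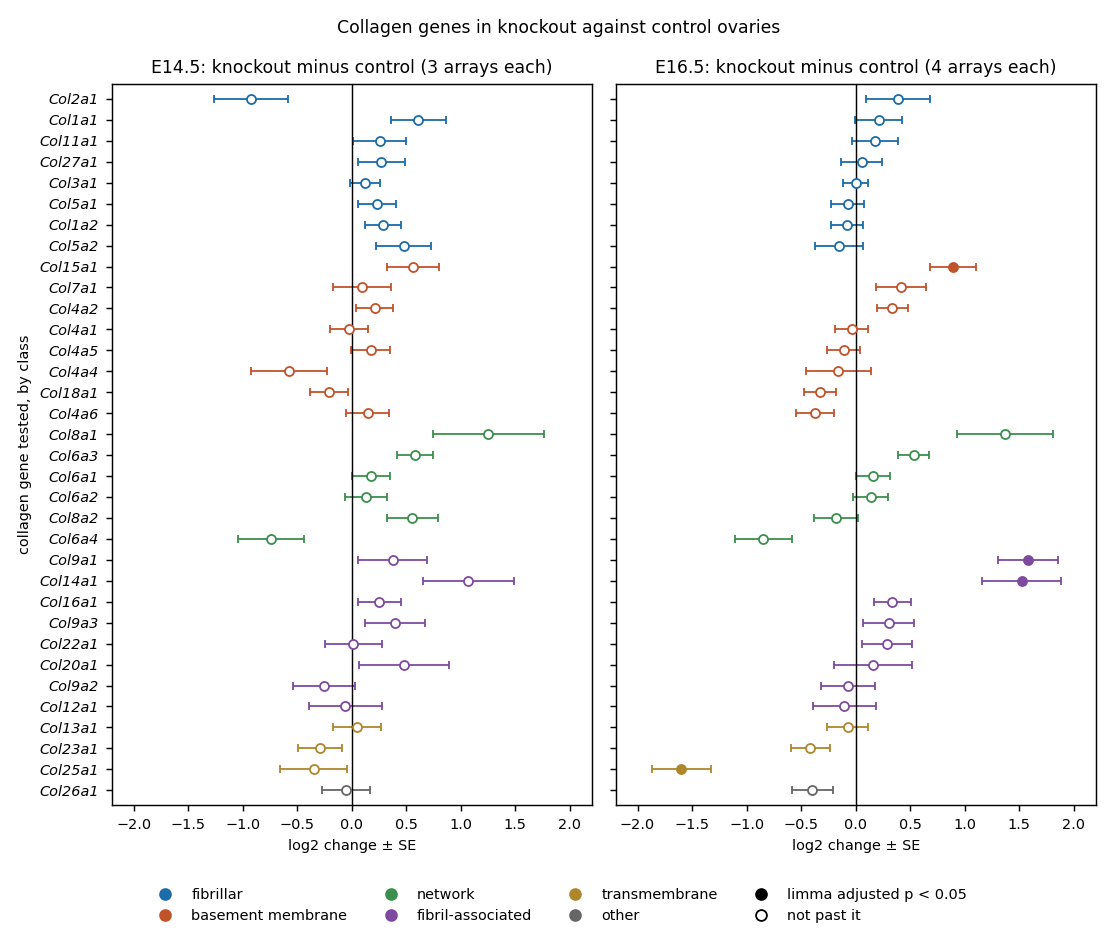
Log2 change of the 34 tested collagen genes, knockout minus control, at E14.5 (left, 3 arrays per group) and E16.5 (right, 4 arrays per group). Points are fitted changes of log2(signal + 16), bars are ± 1 SE, colours are classes and filled points passed limma's test at an adjusted p under 0.05. At E16.5 the filled points are Col15a1, Col9a1, Col14a1 and Col25a1, and the 8 fibrillar members lie between -0.15 and 0.39. At E14.5 no point is filled and 24 of 34 lie above 0.

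Among the fibril-associated collagens, Col9a1 encodes a chain of type IX collagen, which decorates type II collagen fibrils and is best known from cartilage. Its signals were 10.7, 22.7, 34.6 and 23.7 in E16.5 controls and 121, 131, 66.3 and 84.7 in E16.5 knockouts. Every knockout array lay above every control, and the controls lay below the filter level, so the size of the change depends on the constant added before the logarithm. The change was 1.58 ± 0.27 (SE, limma adjusted p = 0.00865), and 1.99 with 4 added and 0.91 with 64 added, at both of which it passed, as it did without each E16.5 array in turn. The second, dimmer Col9a1 probe set also had all knockouts above all controls, with a change of 0.66 ± 0.36 that did not pass (limma adjusted p = 0.453 over all probe sets).

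Col14a1 encodes type XIV collagen, which binds fibrils of type I collagen in soft connective tissue. Its signals were 379, 464, 178 and 474 in E16.5 controls and 1993, 846, 1058 and 642 in E16.5 knockouts. The groups did not overlap, and knockout replicate 1 was the highest. The change was 1.52 ± 0.36 (SE, limma adjusted p = 0.0456). With any single control left out, or with knockout replicate 1 or 3 left out, it missed the threshold, at 1.21 to 1.66 (limma adjusted p = 0.0565 to 0.143), with the lowest value without knockout replicate 1. All 3 probe sets of Col14a1 had positive changes, 1.52 and 1.52 in the brighter pair and 0.81 in the third.

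The other 6 fibril-associated members did not pass and lay between -0.10 (Col12a1) and 0.34 (Col16a1) on the probe sets tested. A second Col12a1 probe set had all knockouts below all controls, with a change of -0.75 ± 0.27 that did not pass (limma adjusted p = 0.230 among all probe sets). The partners of Col9a1 in type IX collagen differed from it in size: Col9a3 had 137 ± 17.1 in controls and 178 ± 52.1 in knockouts (SD, n = 4), with a change of 0.30 ± 0.24 (SE, limma adjusted p = 0.521). Col9a2 had 69.6 ± 17.7 and 65.3 ± 12.6 (SD, n = 4), with a change of -0.07 ± 0.25 (SE, limma adjusted p = 0.909). Col2a1, the chain of the fibril that type IX collagen covers in cartilage, had a change of 0.39 ± 0.29 (limma adjusted p = 0.504). Of 7 chondrocyte markers, 2 were tested and none passed (Acan 0.24 and Hapln1 -0.08), and Comp, Matn1, Matn3, Cnmd and Epyc lay below the filter. The summed signal of all 7 chondrocyte markers, tested or not, was 553 to 767 in E16.5 controls and 683 to 963 in knockouts. Its part in the Col9a1 result was not tested.

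In the basement membrane group, Col15a1 encodes type XV collagen, a multiplexin with chondroitin sulphate chains that lies between basement membranes and fibrils. Its signals were 539, 459.6, 377 and 342 in E16.5 controls and 1144, 633, 726 and 775 in E16.5 knockouts. Every knockout array lay above every control. The change was 0.89 ± 0.21 (SE, limma adjusted p = 0.0436). Without knockout replicate 1 it was 0.72 and did not pass (limma adjusted p = 0.139), and it also missed the threshold without control replicate 2, 3 or 4 or knockout replicate 4, at 0.79 to 0.93 (limma adjusted p = 0.0787 to 0.124). Col15a1 had a single probe set.

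The other 7 members of that group did not pass, and 5 of the 8 lay below 0. Col18a1, the other multiplexin and the source of endostatin, had 1581 ± 185 in controls and 1256 ± 134 in knockouts (SD, n = 4), a change of -0.33 ± 0.15 (SE, limma adjusted p = 0.260). Col4a1, a major chain of type IV collagen, had a change of -0.04 ± 0.15, and its partner and head-to-head neighbour Col4a2 had one of 0.34 ± 0.14 (limma adjusted p = 0.923 and 0.227). Col4a6, a chain of a restricted set of basement membranes, had 477, 449, 354 and 431 in E16.5 controls and 269, 377, 423 and 257 in knockouts. The groups overlapped, and its change was -0.37 ± 0.17 (SE, limma adjusted p = 0.259), against -0.02 on its second probe set. Its neighbour Col4a5 had a change of -0.11 ± 0.16.

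The 3 tested transmembrane collagens all lay below 0, Col13a1 by less than its SE. Col17a1, under the filter, had 0.12 ± 0.31 (SE) when fitted without it. Col25a1, the collagenous precursor of a protein found in amyloid plaques, which motor axons need to enter muscle, had signals of 1027, 1688, 811 and 661 in E16.5 controls and 224, 334, 529.7 and 243 in E16.5 knockouts. Every knockout array lay below every control. The change was -1.60 ± 0.27 (SE, limma adjusted p = 0.00714), and the second, dimmer probe set also had all knockouts below all controls, with -1.21 ± 0.40. The Col25a1 call held without each E16.5 array in turn. Col23a1 had 238, 274, 249 and 221 in E16.5 controls and 205, 184, 170.1 and 162 in knockouts. These groups did not overlap either, on any of its 3 probe sets, but the change of -0.42 ± 0.18 did not pass (limma adjusted p = 0.225). Col13a1, known from the neuromuscular junction, had a change of -0.07 ± 0.19 (limma adjusted p = 0.869). Col26a1, outside these classes, had 697, 832, 815 and 877 in E16.5 controls and 762, 495, 500.4 and 710.0 in knockouts. Its groups overlapped through knockout replicates 1 and 4, and its change was -0.40 ± 0.19 (limma adjusted p = 0.278).

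With the Gapdh difference as a covariate none passed, at changes of 1.63 (Col9a1), 1.25 (Col14a1), 0.58 (Col15a1) and -1.36 (Col25a1) and limma adjusted p from 0.0967 to 0.558. Without knockout replicates 1 and 4, whose bioB hybridization controls (11055 and 17321) exceeded those of the other 6 E16.5 arrays (3923 to 5545), none passed either, at 1.53, 1.39, 0.66 and -1.19 and limma adjusted p from 0.121 to 0.387. 

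Of the 6 network-forming members none passed, although 3 had groups without overlap. Col6a3, the largest chain of type VI collagen, had 2175, 2179, 1911 and 2000.4 in E16.5 controls and 3554, 2778, 3499 and 2311 in knockouts. All knockouts lay above all controls, and the change of 0.53 ± 0.14 missed the threshold (SE, limma adjusted p = 0.0667), which it passed without knockout replicate 4 (0.65, limma adjusted p = 0.0334). Col6a1 and Col6a2, the chains that assemble with it, had changes of 0.16 ± 0.15 and 0.14 ± 0.16 (limma adjusted p = 0.614 and 0.697). Col6a4, a type VI chain related to that of Col6a3, went the other way, from 622, 473, 423 and 493 in controls to 299, 303, 301 and 193 in knockouts. Every knockout lay below every control, with a change of -0.85 ± 0.26 (SE, limma adjusted p = 0.115).

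Col8a1, a chain of the short network-forming type VIII collagen, had 99.9, 131, 106 and 74.2 in E16.5 controls and 639, 261, 259 and 152 in knockouts. The groups did not overlap, but the knockout arrays were spread widely, with knockout replicate 1 the highest. The change was 1.37 ± 0.44 (SE, limma adjusted p = 0.124). Its partner chain Col8a2 had 1590.5 ± 139 in controls and 1434 ± 378 in knockouts (SD, n = 4), a change of -0.18 ± 0.20 (SE, limma adjusted p = 0.665).

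On the probe sets tested, no fibrillar collagen had a change above 0.39 in size at E16.5. None of 8 passed, 4 lay above 0 and 4 below, and the groups overlapped for all 8. Col3a1, the chain of type III collagen, had 13313, 13668, 12371 and 13492 in E16.5 controls and 13773, 13203, 13529.8 and 12336 in knockouts, with a change of 0.00 ± 0.12 (SE). Col1a1, a chain of type I collagen, had 8299, 9536, 9181 and 10499.9 in controls and 12383, 10017, 10152 and 10874 in knockouts, with a change of 0.21 ± 0.22. Their arrays overlapped, and the highest Col1a1 value was that of knockout replicate 1. Col5a2, a chain that regulates the width of type I fibrils, had -0.15 ± 0.22 on the probe set tested and -0.69 ± 0.20 on its second one, where all knockouts lay below all controls and which did not pass (limma adjusted p = 0.141 among all probe sets). The second probe set of Col11a1, a chain of the minor fibrillar type XI collagen, had 0.51 ± 0.22, with overlapping groups (limma adjusted p = 0.333 among all probe sets). Across the family, 7 of 23 other probe sets above the filter had fully separate E16.5 groups, 2 higher (Col14a1 and Col27a1) and 5 lower (Col5a2, Col12a1, Col18a1 and both of Col23a1).

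**Figure D2:**
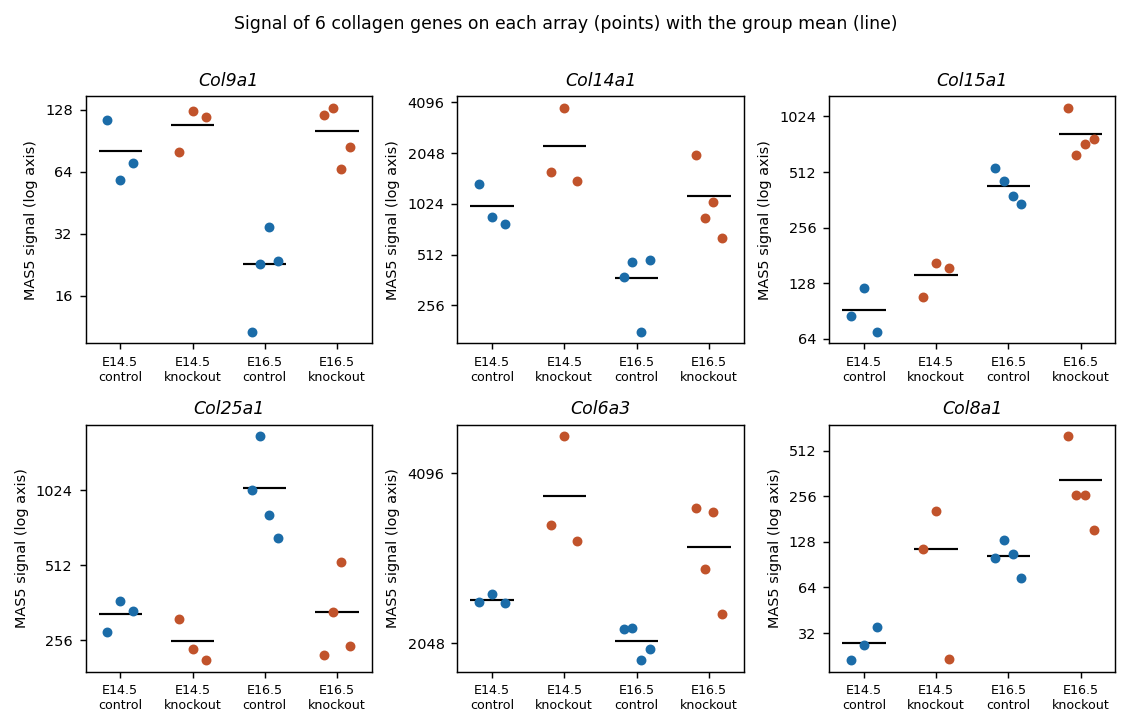
MAS5 signal (log axis) of 6 collagen genes on each of the 14 arrays. Points are arrays, lines are group means, blue is control and red is knockout. At E16.5 all knockout points of Col9a1, Col14a1, Col15a1, Col6a3 and Col8a1 lie above the controls and those of Col25a1 lie below. At E14.5 only Col14a1 and Col6a3 of the 6 have separate groups.

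The windows before the annotated start are shown for the 3 of these 8 non-overlapping members for which at least 200 bases lay outside every gene span of the RefSeq table (GRCm38.p6), to show how the starts of such members differ. Of these 3 genes, only Col9a1 passed the test. Capitals mark matches on either strand to 4 motifs, and no printed matches overlap. The core of the TATA box was searched as TATAAA. That of the CCAAT box was searched as named, and that of the GC box as GGGCGG. The fourth was AGGTCA, an element that nuclear receptors of the COUP-TF kind can bind as a repeat. The sequences are from RefSeq and are written 5′ to 3′ on the gene's strand.
Col9a1, plus strand, chr1:24177360-24177588: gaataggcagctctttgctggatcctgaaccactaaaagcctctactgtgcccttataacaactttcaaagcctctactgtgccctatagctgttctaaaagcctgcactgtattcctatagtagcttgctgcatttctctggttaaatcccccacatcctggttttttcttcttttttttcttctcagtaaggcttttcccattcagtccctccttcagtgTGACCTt
Col8a1, minus strand, chr16:57754738-57754987: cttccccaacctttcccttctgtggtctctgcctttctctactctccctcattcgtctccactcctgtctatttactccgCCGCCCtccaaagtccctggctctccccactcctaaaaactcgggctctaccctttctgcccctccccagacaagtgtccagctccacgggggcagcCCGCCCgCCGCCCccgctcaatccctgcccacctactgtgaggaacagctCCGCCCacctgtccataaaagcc
Col6a3, minus strand, chr1:90844002-90844221: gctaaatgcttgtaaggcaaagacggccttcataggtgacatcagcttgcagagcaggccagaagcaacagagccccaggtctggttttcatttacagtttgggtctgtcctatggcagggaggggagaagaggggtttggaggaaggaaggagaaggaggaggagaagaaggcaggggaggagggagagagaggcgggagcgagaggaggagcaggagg

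Col9a1 had 1 AGGTCA match, near the end of the window and on the opposite strand, and no GC box core, at 43.2% G and C. Col8a1 had 4 GC box cores and no other motif, at 60.8% G and C, and Col6a3 had none of the 4 motifs, at 56.4%. Over the family, 33 of 42 genes had an entry, with 36 windows of 250 bases before a start. AGGTCA was held by 8 of the 36 (22.2%), against 4607 of all 32851 windows in the table. The GC box core was held by 58.3% against 32.7%, the CCAAT box by 36.1% against 33.8% and the TATA box core by 13.9% against 12.4%. The collagen windows also held more G and C, with a median of 59.0% against 52.4%. A match says only that these letters are in the window. Col14a1 had no entry.

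Cell type markers moved with the E16.5 comparison. Among 5 tested surface epithelium markers, Krt19 and Upk1b rose, by 1.24 ± 0.25 and 1.01 ± 0.24 (limma adjusted p = 0.0173 and 0.0438), and the summed signal of the 5 was 6010.3 to 7307 in controls and 8739 to 12377 in knockouts. Among 5 tested interstitial markers, which include the targeted Nr2f2, Pdgfra and Wnt5a fell, by 1.25 ± 0.19 and 1.34 ± 0.20 on the log2 scale (limma adjusted p = 0.00457 and 0.00442), and the sum was 10663 to 12031 in controls and 4852 to 7444 in knockouts. The sums take in every listed marker on the array, tested or not. Those of 5 endothelial markers (2779 to 3152 and 3254 to 4177) did not overlap either. Nor did those of 3 adrenal markers (64.7 to 157 and 190.4 to 268), of which only Mc2r was tested. The sums of germ cells, pre-granulosa cells, mesonephric tubules, glia, smooth muscle and macrophages did overlap. Of the markers in these other lists, Des, Plvap, C1qb, S100b and Mc2r passed as higher and Tek as lower. Markers of the same lists also went other ways, without passing. Foxl2 (-0.83), Fabp7 (-1.26) and Rgs5 (-0.49) were lower with groups that did not overlap (limma adjusted p = 0.0504, 0.0509 and 0.132). Pax8, Cdh16, Cd68 and Myh11 were higher without overlap and did not pass either. Their part in the collagen changes was not tested.

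Collagen chains are modified, folded and trimmed by dedicated enzymes, and these were described as 4 further lists. In the synthesis and folding list, 1 of 18 tested genes passed at E16.5, a rise, against 0.967% of all genes. P4ha3, a catalytic subunit of prolyl 4-hydroxylase, had 175, 219.7, 181 and 159 in E16.5 controls and 559, 296, 364 and 319 in knockouts. All knockouts lay above all controls, and the change was 0.97 ± 0.21 (SE, limma adjusted p = 0.0322). The other 2 catalytic subunits, P4ha1 and P4ha2, had 0.32 and 0.47 and did not pass. Of this list, 14 of 18 lay above 0 and the median was 0.18, against 0.05 for all genes.

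None of 6 tested genes of secretion, trimming and crosslinking passed at E16.5. The 2 smallest p were those of Pcolce, the enhancer of procollagen C-proteinase, with 0.60 ± 0.15 (SE, limma adjusted p = 0.0509) and groups without overlap, and of Bmp1, that proteinase, with 0.24 ± 0.18 (limma adjusted p = 0.505). None of 3 collagenases and gelatinases passed (Ctsk 0.51 and Mmp14 0.32), and none of 6 collagen receptors (Ddr1 0.45 and Itgb1 -0.20). In these 3 lists 8 of 15 genes lay above 0. At E14.5 none of the 33 genes of the 4 lists passed, against 0.0403% of all genes. Of the 33, 29 lay above 0, against 55.3% of all genes. The lists were not examined without E14.5 knockout replicate 2, the highest knockout array for 27 of 34 collagen genes.

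Knockout against control at E14.5 asked the same 2 days after the last dose. No collagen gene of 34 passed, against 0.0403% of all genes (5 of 12406). The smallest limma adjusted p was 0.313, for Col6a3. An unadjusted p under 0.05 was found for 8 members (23.5%), against 8.55% of all genes. In direction, 24 of 34 (70.6%) lay above 0, against 55.3% of all genes, and the median change was 0.17 against 0.03. Without knockout replicate 2 the collagen median was 0.02, against 0.0048 for all genes. Groups were fully separate for 4 members (11.8%), against 12.7% of all genes: Col14a1, Col27a1 and Col6a3 were higher and Col2a1 was lower, against 7.84% and 4.90% of all genes.

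Of the 5 largest positive changes at E14.5, 4 were also among the 5 largest at E16.5 (Col6a3, Col8a1, Col14a1 and Col15a1). The comparisons share no arrays. Col8a1 had 21.1, 26.5 and 35.0 in E14.5 controls and 115, 206 and 21.5 in knockouts, so that knockout replicate 3 lay within the controls. Its change was 1.25 ± 0.51 (SE, limma adjusted p = 0.500). Col14a1 had 1345, 858 and 779 in controls and 1590.4, 3820.4 and 1405 in knockouts, without overlap, with a change of 1.07 ± 0.42 (limma adjusted p = 0.463). Knockout replicate 2 was the highest for both genes. Without knockout replicate 3, Col8a1 (1.98) and Col1a1 (0.95) passed (limma adjusted p = 0.0287 and 0.0385), and no other alternative gave a collagen call at E14.5.

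Col6a3 had 2423, 2504 and 2417 in E14.5 controls and 3317, 4768 and 3104 in knockouts, a change of 0.58 ± 0.17 (SE). The controls lay within a narrow band and all knockouts above it. Col15a1 had 85.1, 121 and 69.5 in controls and 108, 165 and 154 in knockouts, and Col1a1 had 1204, 1534 and 1813 against 2077, 4060.1 and 1427. Both had overlapping groups, with changes of 0.56 ± 0.24 and 0.61 ± 0.25 (limma adjusted p = 0.520 and 0.500). Col27a1, a fibrillar collagen of early cartilage, had 861, 774 and 658 in controls and 923, 914 and 923 in knockouts, with a change of 0.27 ± 0.21 (limma adjusted p = 0.759).

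At the lower end, Col2a1 had 71.8, 70.8 and 91.9 in E14.5 controls and 37.0, 11.7 and 66.0 in knockouts, a change of -0.92 ± 0.34 (SE, limma adjusted p = 0.424). All knockouts lay below all controls, at signals near or under the filter level. Col6a4 had 81.0, 176 and 202 in controls and 130.2, 69.6 and 53.6 in knockouts, with -0.74 ± 0.30, and its second, dimmer probe set had 0.66 ± 0.36. Col4a4, a chain of the mature kidney basement membrane, had 53.6, 126 and 185 in controls and 69.5, 104 and 42.8 in knockouts, with -0.57 ± 0.35. Col25a1 had 276, 367 and 334 in controls and 312, 236 and 213 in knockouts, with -0.35 ± 0.31, and Col23a1 had 159, 231 and 254 and then 169.6, 134 and 214, with -0.29 ± 0.20. The groups of these 4 genes overlapped, and none passed (smallest limma adjusted p = 0.500).

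**Figure D3:**
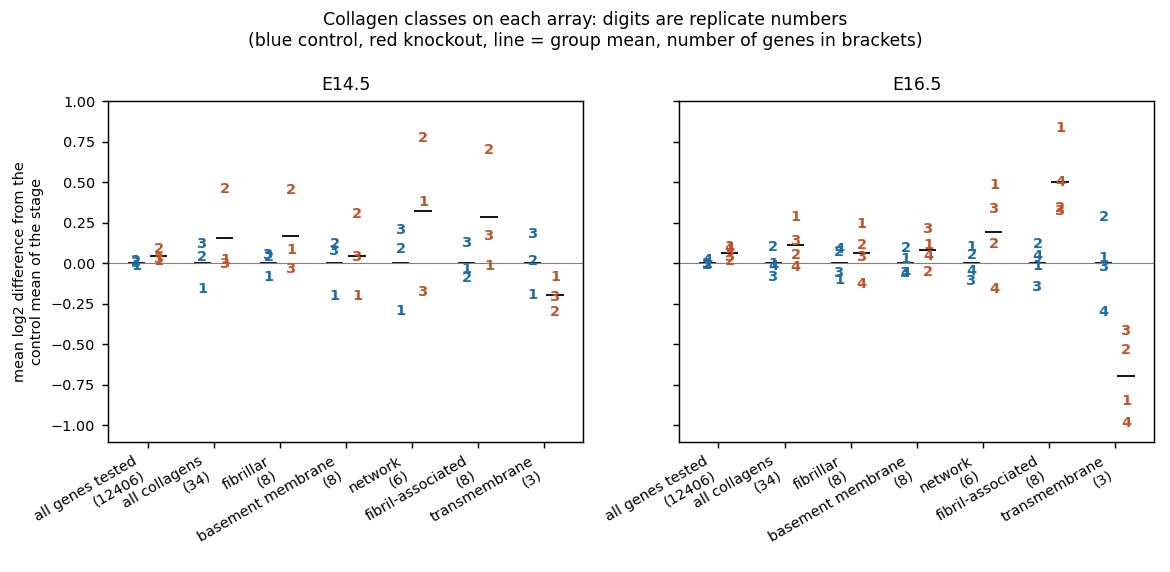
Mean difference of each collagen class from its control mean on every array, in log2(signal + 16), at E14.5 (left) and E16.5 (right). Digits are replicate numbers, blue is control, red is knockout, lines are group means, and the number of genes in a class stands in brackets. At E14.5 knockout replicate 2 is the highest array for all collagens, at 0.46, and at E16.5 knockout replicate 1 is, at 0.29. The fibril-associated class mean, which includes Col9a1 and Col14a1, has all E16.5 knockout arrays above all controls, and the transmembrane mean, which includes Col25a1, has them all below.

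Averaged over the family, the E14.5 knockout arrays lay 0.02, 0.46 and -0.01 from the control mean (0.16 ± 0.26, SD, n = 3), with replicates 1 and 3 near 0. Without knockout replicate 2, the median change of the fibrillar class fell to 0.07 from 0.26. The E16.5 knockout arrays lay 0.29, 0.05, 0.14 and -0.02 from their control mean (0.11 ± 0.13, SD, n = 4). By class, the E16.5 knockout arrays averaged 0.07 ± 0.16 for fibrillar, 0.08 ± 0.11 for basement membrane and 0.19 ± 0.28 for network-forming collagens (SD, n = 4), with knockouts and controls overlapping in each. The fibril-associated class averaged 0.50 ± 0.24 and the transmembrane class -0.70 ± 0.27 (SD, n = 4), and these means include the called genes Col9a1, Col14a1 and Col25a1. Col9a1 was above the filter only through its high E16.5 knockout arrays. The medians over the fibril-associated genes overlapped, at -0.10 to 0.17 on control and 0.08 to 0.60 on knockout arrays, and the median change of that class was 0.30, or -0.0073 with the Gapdh covariate and 0.09 without knockout replicates 1 and 4.

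Whether the knockout changes differed between stages was tested for every gene, and no collagen passed, nor did any of the 12406 genes (0% called). The difference was above 0 for 12 of 34 members, against 52.5% of all genes. An unadjusted limma p under 0.05 was found for 4 members (11.8%), against 8.91% of all genes. They were Col25a1 with a difference of -1.25 ± 0.41 (SE, limma adjusted p = 0.510), Col2a1 with 1.31 ± 0.45, Col9a1 with 1.21 ± 0.42 and Col8a2 with -0.74 ± 0.31. The calls at E16.5 and their absence at E14.5 are therefore not shown to differ between stages for any member. Simulated data put the share of 2-fold changes that the test recovers at 72.4% for E14.5 and 82.0% for E16.5, and of 1.5-fold changes at 29.6% and 42.8%. They held 200 changed genes and noise drawn separately for each gene. In the real data 5 genes passed at E14.5 and 176 at E16.5, and single arrays stood out over many genes. The shares can therefore overstate what the test recovers here.

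Controls at E16.5 were compared with controls at E14.5 to describe the members by stage. Of 34 collagens 21 passed (61.8%), 15 higher and 6 lower at E16.5, against 64.4% of all genes (28.5% higher and 35.9% lower). Network-forming collagens were higher for 5 of 6 members and the basement membrane group for 4 of 8 with 1 lower, whereas the fibrillar, fibril-associated and transmembrane classes had as many higher as lower. Stages were fully separate for 25 of 34 members (16 higher and 9 lower), against 67.6% of all genes (30.1% and 37.4%). The change lay above 0 for 22, against 46.4% of all genes, and had an unadjusted p under 0.05 for 23, against 67.8%. The Gapdh difference between 3' and 5' probe sets rose by 2.04 log2 units between the same arrays. With it as a covariate 3 collagens passed (Col15a1, Col1a1 and Col26a1), where 5.65% of all genes did. The bioB hybridization controls differed between the stages too, at 1637 to 1789 on E14.5 and 3923 to 5021 on E16.5 control arrays. How far the stage changes go with such array differences was not tested.

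Col1a1 rose the most, from 1204, 1534 and 1813 at E14.5 to 8299, 9536, 9181 and 10499.9 at E16.5, by 2.63 ± 0.23 (SE, limma adjusted p = 3.98e-08). Col15a1 rose from 85.1, 121 and 69.5 to 539, 459.6, 377 and 342, by 2.05 ± 0.22 (limma adjusted p = 4.53e-07). Col6a4 rose by 1.69 ± 0.28 and Col20a1 by 1.61 ± 0.38, from 30.1 ± 20.9 (SD, n = 3) to 118 ± 29.0 (SD, n = 4), where the E14.5 controls lay under the filter level and the second Col20a1 probe set above the filter had a change of -0.57 ± 0.47. On the probe sets tested, none of these 4 had overlapping stages. Col25a1 rose by 1.56 ± 0.29, and its E16.5 knockouts (224 to 529.7) spanned the range of the E14.5 controls (276 to 367), below the E16.5 controls (661 to 1688).

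Col14a1, Col27a1, Col9a1 and Col13a1 were the members that fell most. Col14a1 fell by 1.42 ± 0.39 on the log2 scale (SE, limma adjusted p = 0.00401), from 779 to 1345 down to 178 to 474. Col27a1 fell by 1.41 ± 0.20, from 861, 774 and 658 to 177, 324, 332 and 300.0. Col9a1 fell by 1.31 ± 0.30, from 114, 58.6 and 70.9 to between 10.7 and 34.6, and its E16.5 knockouts (66.3 to 131) overlapped the E14.5 controls. Col13a1 fell by 1.11 ± 0.20, from 269, 221 and 318 to 122, 109, 132 and 98.2.

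**Figure D4:**
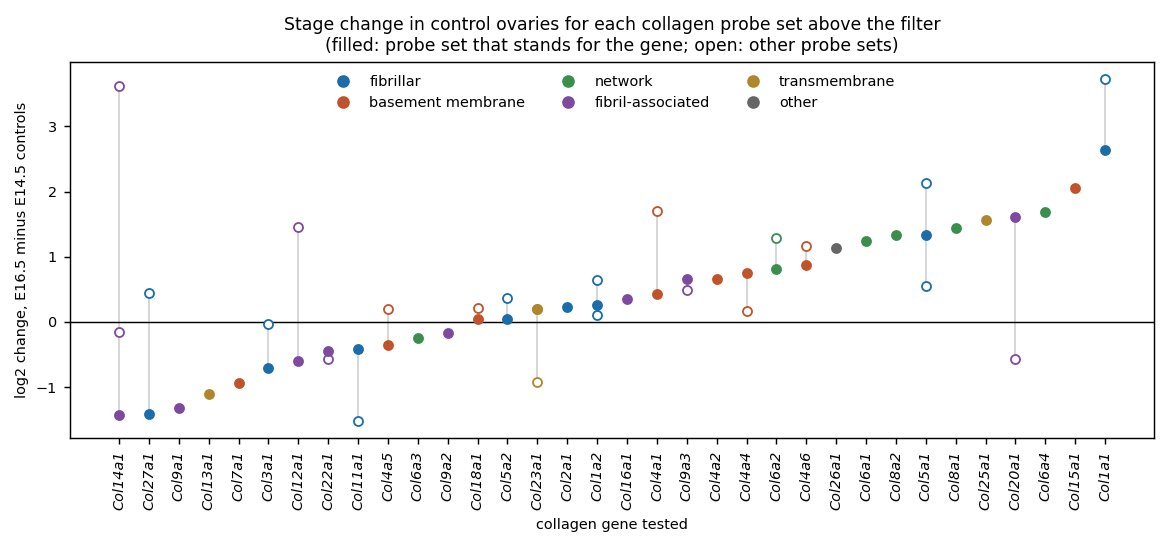
Log2 change between control ovaries at E16.5 and E14.5 for every collagen probe set above the filter, with genes in the order of their change. Filled points are the probe sets that stand for the genes, open points are other probe sets of the same gene, and colours are classes. The 3 Col14a1 points lie at -1.42, -0.16 and 3.62, and Col27a1, Col12a1, Col20a1, Col23a1 and Col4a5 also have points on both sides of 0.

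In log2 units, probe sets of a single gene lay further apart for the stage change than for the knockout, but the stage changes were also larger. Of 27 genes with several probe sets, all had the same sign in 15 at E14.5, 18 at E16.5 and 19 between stages, and the median spread between the probe sets of a gene was 0.31, 0.36 and 1.10 log2 units. The median size of change of the 34 tested genes was 0.26, 0.25 and 0.78. The 3 Col14a1 probe sets gave stage changes of -1.42 ± 0.38, -0.16 ± 0.36 and 3.62 ± 0.31, and those of Col27a1 gave -1.41 ± 0.20 and 0.44 ± 0.19 (SE). For Col9a1 (-1.31 and -1.17), Col25a1 (1.56 and 1.64), Col6a4 (1.69 and 1.48) and Col1a1 (2.63 and 3.73) both probe sets went the same way. With probe sets above the filter alone, 6 genes had stage changes on both sides of 0: Col14a1 and Col27a1, Col20a1 (1.61 and -0.57), Col12a1 (-0.60 and 1.46), Col23a1 (-0.92 to 0.20) and Col4a5 (-0.36 and 0.20). Their stage direction differs with the probe set, while the knockout changes of Col14a1 at E16.5 had the same sign on all 3. Tested probe set by probe set without a filter, 3 collagen probe sets passed at E16.5, against 0.572% of 34945: 1 each of Col25a1, Col9a1 and Col14a1.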

How the data were processed

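Total RNA of 14 fetal ovary samples was labelled with the Affymetrix 3' IVT Express kit, per the labels' protocols. The deposited values are linear probe set intensities. According to the submitters' processing notes, the authors used MAS5 and Affymetrix Expression Console, for which no version is given. The trimmed mean of every deposited array, with 2% left out at each end, was 500, so global differences in RNA amount are removed. Array number limits the precision.

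Log2(signal + 16) was fitted with limma 3.58.1 in R 4.3.3, with all 4 groups in the model and a mean-variance trend in eBayes. The probe set of highest mean stood for its gene, genes above the 40th percentile of probe sets were kept, and two-sided p-values of the 12406 genes were adjusted together (Benjamini-Hochberg, threshold 0.05). These p-values measure the spread between samples that the labels call biological replicates. A change on this scale understates that of dim genes. All 42 collagen symbols matched RefSeq. In simulated data with 200 changed genes, 4.82% of calls at E14.5 and 5.88% at E16.5 were false. Their noise was drawn separately for each gene, so these shares do not give the error rate of the real calls. Figures used matplotlib 3.10.9 in Python 3.11.15.

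The members, classes, gene lists and rules were chosen with earlier results of these data known. The rule for named genes takes every collagen past the threshold in a knockout comparison, the 5 highest and 5 lowest changes of each, the 4 highest and 4 lowest called stage changes, and up to 3 further members per class. Second probe sets, partner chains and other members named for their role fall outside it and were chosen after their values were seen. Alternatives changed the pseudocount, scaling, filter, probe set choice, spread model, covariate and block, and left out arrays. A filter by linear mean, and leaving out E14.5 knockout replicate 2 with E16.5 knockout replicate 1, were added after seeing the data.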

Additional observations from a re-analysis of the deposited data

Results flagged for a closer look

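In 2 of 44 sets of 4 arrays, 1 array lay far from the other 3, where chance gives 1 in 20 sets. Col6a4 was at 193 in E16.5 knockout replicate 4, against 299, 303 and 301 in the other knockouts, a gap of 0.959 of the group's range. Col27a1 was at 208 in E16.5 knockout replicate 2, against 314, 313 and 329, a gap of 0.869. Groups of 3 arrays were not tested in this way.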

How the results depend on the processing

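The E16.5 count of 4 collagens was 3 to 5 under the other pseudocounts, scalings, the 60th percentile filter and probe set choices, 2 with no filter, 2 with no trend in eBayes, 0 with the Gapdh covariate, 0 without knockout replicates 1 and 4 and 1 without E14.5 knockout replicate 2 and E16.5 knockout replicate 1 (Col25a1), and 2 to 4 when each array was left out in turn (2 without control replicate 2, 3 or 4 or knockout replicate 1, with Col25a1 and Col9a1 remaining). At E14.5 the count was 0 to 2 when each array was left out in turn (2 without knockout replicate 3) and 0 under the other alternatives. The stage count of 21 was 15 to 27, and 3 with the Gapdh covariate. The difference between stages gave 0 calls under every alternative run. The Col14a1 stage change turned from -1.42 to 0.68 with the mean of its probe sets and to 0.00936 with the Gapdh covariate. The cause of the changed counts was not tested. The Col25a1 call held in 20 of 22 alternatives, Col15a1 in 12 of 22 and Col14a1 in 9 of 22. The Col9a1 call held in 18 of the 21 in which Col9a1 was above the filter and tested. Quantile normalization added Col6a3, and the E16.5 arrays alone put Col6a4 past the threshold and Col14a1 out. The all-collagen median at E16.5 had the other sign in 5 of 22 alternatives. The deviations of same-numbered arrays had correlations of -0.05 to 0.43. Such values cannot decide whether the numbers pair arrays, because a weak correlation does not exclude a shared litter or batch. With the replicate block the counts were 4 at E16.5, 0 at E14.5 and 21 between stages. Signals near or under 62.0, as for Col9a1, Col2a1 and Col8a1, have little precision.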
